A study of Mus musculus with 32 samples.

Results

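Motile cilia beat because rows of dynein motors, anchored on a ring of doublet microtubules, slide those doublets against each other. In the lung they sit on the multiciliated cells of the conducting airways, beside the secretory club cells, and carry mucus out of the airways. The transcription factor Foxj1 switches on the genes for these parts, and RFX factors act with it at a promoter element called the X-box. The genes described here are the 80 rows, of 41687 in the deposited gene table, whose symbol is Foxj1 or starts with Cfap, Dnah, Dnai, Dnaaf, Drc, Rsph, Tekt or Spag followed by a digit, with pseudogenes dropped. They comprise Foxj1, 16 Dnah rows (15 axonemal dynein heavy chains and the antisense transcript Dnah2os), 4 Dnaaf genes for the cytoplasmic assembly of dynein arms, 3 Drc genes of the nexin-dynein regulatory complex, 8 Rsph genes of the radial spokes, 5 tektins of the doublet wall, 30 Cfap genes of various axonemal parts and 13 Spag rows. The rule found 0 Dnai rows, since the dynein intermediate chains carry older names in the symbol table. It was made from names, and 5 Spag members are not parts of motile cilia, among them Spag5 (astrin, of the mitotic spindle) and Spag9 (the scaffold JIP4).

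The libraries were made from whole lung of adult mice. The wild-type (WT) animals were C57b/6, and the knock-outs (KO) lacked Bmal1, the activator of the circadian clock whose gene symbol is Arntl. All were aged 8 to 18 weeks and labelled female, and how the knock-out was made and the time of day at collection are not given in the sources used here. RNA of 6 WT and 6 KO mice was prepared both by poly(A) selection (PolyA) and by pull-down of ribosomal RNA (RiboZero), from 200 ng each. For mice 3 to 6 of each genotype it was also prepared from 15 ng with neither step (NoSelect), in repeats that raised the reads per library, which makes 32 libraries in all, with 6, 6 and 4 per genotype. The libraries of 1 mouse share its RNA, so the preparations are not independent repeats of the genotype comparison.

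Total estimated counts were 11638594 to 25801237 in RiboZero, 29924325 to 41548830 in PolyA and 74979802 to 115059756 in NoSelect libraries, and all pairs of libraries of a group differed by more than counting noise. Levels below are normalised CPM, counts scaled to library size on 1 TMM scale for all 32 libraries. The Arntl row was lower in KO than in WT under RiboZero (17.4 ± 1.31 against 30.9 ± 2.90 normalised CPM, SD, n = 6) and NoSelect (17.8 ± 0.959 against 28.7 ± 0.853, n = 4), with no overlap of the groups. Under PolyA it was 18.6 ± 1.48 against 21.9 ± 1.82 (n = 6), and the groups overlapped. KO mouse 6 did not match its label of sex: Xist, which marks a second X chromosome, was at most 0.391 normalised CPM in its 3 libraries and at least 249.98 in the other 29, while the Y-linked Ddx3y was at least 41.4 in its 3 and at 0 in the other 29. Its NoSelect library is labelled liver, yet held 5328 normalised CPM of Sftpc, the alveolar surfactant protein, and 0.391 of Alb, the liver's albumin. Without KO mouse 6 the numbers of cilia genes called between genotypes were unchanged at 3, 1 and 2.

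Promoters of 62 of the 80 genes were found in RefSeq (GRCm38.p6), and the 250 bases before each start were searched on both strands. The 18 members without a promoter, among them Foxj1, Cfap53 and Rsph10b, were not searched for any of the motifs below. The X-box was searched as an inverted repeat, GTTNCCN followed by its reverse complement, with up to 2 mismatches. It stood in at least 1 promoter of 23 of the 62 genes (37.1%), against 3580 of all 27025 genes with a promoter (13.2%). The 23 include Spag5 and Spag9, which are not parts of motile cilia. The E-box CACGTG, the letters that the BMAL1 and CLOCK pair is known to bind, stood in 3 (Cfap20, Cfap57 and Drc3, 4.84%) against 6.86% of all genes with a promoter. The forkhead letters TGTTTAC, of the kind that FOXJ1 binds, stood in 4 (6.45%) against 3.54%. The 6 stretches here were chosen to show how close and how degenerate the X-box matches are. Cfap298 (minus strand, chr16:90934999-90935062) matched every fixed letter. Cfap206 (minus strand, chr4:34730207-34730254), Cfap44 (plus, chr16:44394747-44394798), Cfap45 (plus, chr1:172521086-172521129) and Drc1 (plus, chr5:30281349-30281392) had 1 mismatch, and Tekt1 (minus, chr11:72361883-72361922) had 2. Each is written 5′ to 3′ on the gene's strand, with the matched 14 letters in capitals.
Cfap298: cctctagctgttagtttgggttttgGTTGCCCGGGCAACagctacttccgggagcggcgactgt
Cfap206: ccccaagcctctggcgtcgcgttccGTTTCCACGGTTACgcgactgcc
Cfap44: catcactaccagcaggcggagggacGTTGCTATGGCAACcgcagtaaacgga
Cfap45: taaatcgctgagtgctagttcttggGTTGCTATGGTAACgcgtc
Drc1: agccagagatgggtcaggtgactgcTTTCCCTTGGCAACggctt
Tekt1: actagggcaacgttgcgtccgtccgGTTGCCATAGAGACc
In these genes other than Cfap298 the match ended 2 to 14 bases before the start. These are matches of letters only, and none was tested for binding.

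Most of the genes were expressed in lung. A mean of at least 1 normalised CPM was reached by 69 members under RiboZero, 69 under PolyA and 68 under NoSelect, and at least 10 by 46, 53 and 46. Cfap97d1 had no count in any of the 32 libraries, and Spag11a and Spag11b, β-defensin-like genes of the epididymis, lay near 0. Summed over the members, the mean level was much the same in all preparations, at 2044, 2017 and 1964 normalised CPM. Its make-up was not: the 15 heavy chains, whose transcripts are the longest of the set, made up 43.4% of the sum under RiboZero, 42.2% under NoSelect and 22.9% under PolyA.

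Levels of different genes are compared here as normalised CPM per kilobase of the longest annotated transcript. On the mean of RiboZero and PolyA, Foxj1 (ENSMUSG00000034227, chr11:116330704-116335399, minus strand, GRCm38) was the highest member at 45.4. It stood at 29.4 under RiboZero, 61.4 under PolyA and 28.1 under NoSelect, and ranked 1st under PolyA and 2nd, after Spag9, in both others. Next on that mean came Rsph1, of the radial spoke head (24.3), Spag9 (23.6), Cfap126 (23.0), Spag7 (22.1), Cfap65, of the central apparatus (19.8), and Tekt1 (18.2). The highest heavy chain was Dnah6, of an inner arm, at 10.6, followed by Dnah5, the outer-arm motor most often mutated in primary ciliary dyskinesia, at 7.07. The order of the genes depended on the preparation: Dnah6 ranked 5th under RiboZero and 27th under PolyA, and Dnah5 ranked 9th and 49th. Dnah8 and Dnah17, heavy chains of the sperm outer arm, were low at 0.388 and 0.035, and Dnah14, an inner-arm chain, was the lowest heavy chain at 0.001. Markers of germ cells summed to at most 0.427 normalised CPM in any library, with Tnp1 at 0 in all 32.

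**Figure D1:**
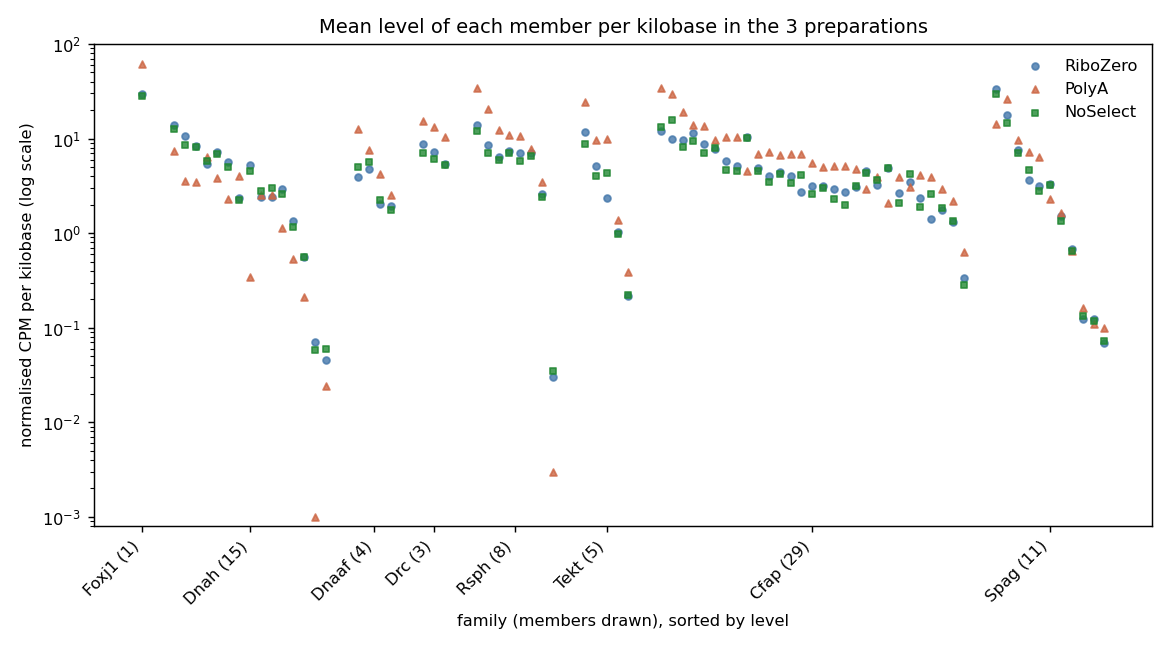
Mean level of each member in normalised CPM per kilobase of its longest transcript (log axis), by gene family (x axis) and preparation (marker). Members with a mean of at least 0.01 over RiboZero and PolyA are drawn, and values under 0.001 are drawn at 0.001. Foxj1 stands highest under PolyA, where most heavy chains sit below their own RiboZero and NoSelect values.

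The genotype comparison asks whether loss of Bmal1 changes these genes in lung. In all 3 preparations 1 member passed the test: Cfap53, a gene needed for ciliary motility and for left-right placement of the organs, was 1.61-fold higher in KO under RiboZero, 1.67-fold under PolyA and 1.71-fold under NoSelect. Dnah11, an outer-arm heavy chain, was higher in KO under RiboZero (1.402-fold) and NoSelect (1.43-fold), and Rsph10b, of the radial spokes, under RiboZero (1.403-fold). The other members leaned to higher values in KO, by amounts that did not pass the test one by one.

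Under RiboZero, 3 of 72 members tested passed at an adjusted p under 0.05, all higher, when 1.84% of all rows were called higher. Under PolyA it was 1 of 73 (1.62% of all rows), and under NoSelect 2 of 73 (1.19%). In these fits no member was called lower, when 1.63%, 2.41% and 0.981% of all rows were. With so few members called, nothing is read from these shares. The direction was more one-sided: 65 of 72 members (90.3%) had a positive log2 fold change under RiboZero, against 50.0% of all rows. It was 63 of 73 (86.3%) under PolyA against 49.2%, and 64 of 73 (87.7%) under NoSelect against 50.2%. The median member stood at a log2 fold change of 0.20, 0.19 and 0.16, where the median of all rows was within 0.003 of 0. Of 71 members tested in all preparations, 60 were positive in each and 4 negative in each. Since the same mice were used, and cilia genes vary together from mouse to mouse, these counts rest on the same few animals.

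Cfap53 (ENSMUSG00000035394) was read in every library. Under RiboZero the 6 WT libraries lay at 6.18, 7.20 and 7.69 normalised CPM (lowest, median, highest) and the 6 KO libraries at 8.11, 11.2 and 14.6. Under PolyA they lay at 8.48, 10.0 and 13.5 in WT and at 15.4, 16.9 and 20.4 in KO. Under NoSelect the 4 WT libraries (mice 3, 4, 5 and 6) held 6.96, 6.76, 5.49 and 6.62, and the 4 KO libraries 9.51, 9.01, 10.9 and 14.8. Every KO library was thus above every WT library of its preparation. That separation was shared, in the higher direction, by 1.42%, 1.82% and 5.08% of all rows, and in the lower direction by 1.47%, 1.49% and 4.4%. The log2 fold changes were 0.69 ± 0.13, 0.74 ± 0.10 and 0.78 ± 0.16 (SE), with adjusted p of 0.0103, 0.00165 and 0.0495 by edgeR's quasi-likelihood test. Under PolyA the call held in all alternatives run (adjusted p at most 0.00511), under RiboZero in all but the fit of mice 3 to 6 alone (adjusted p = 0.14). Under NoSelect it was lost in 10 of the 14 alternatives, including the fits without any 1 library other than KO 6, with adjusted p up to 0.141 and log2 fold changes of 0.60 to 0.86.

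**Figure D2:**
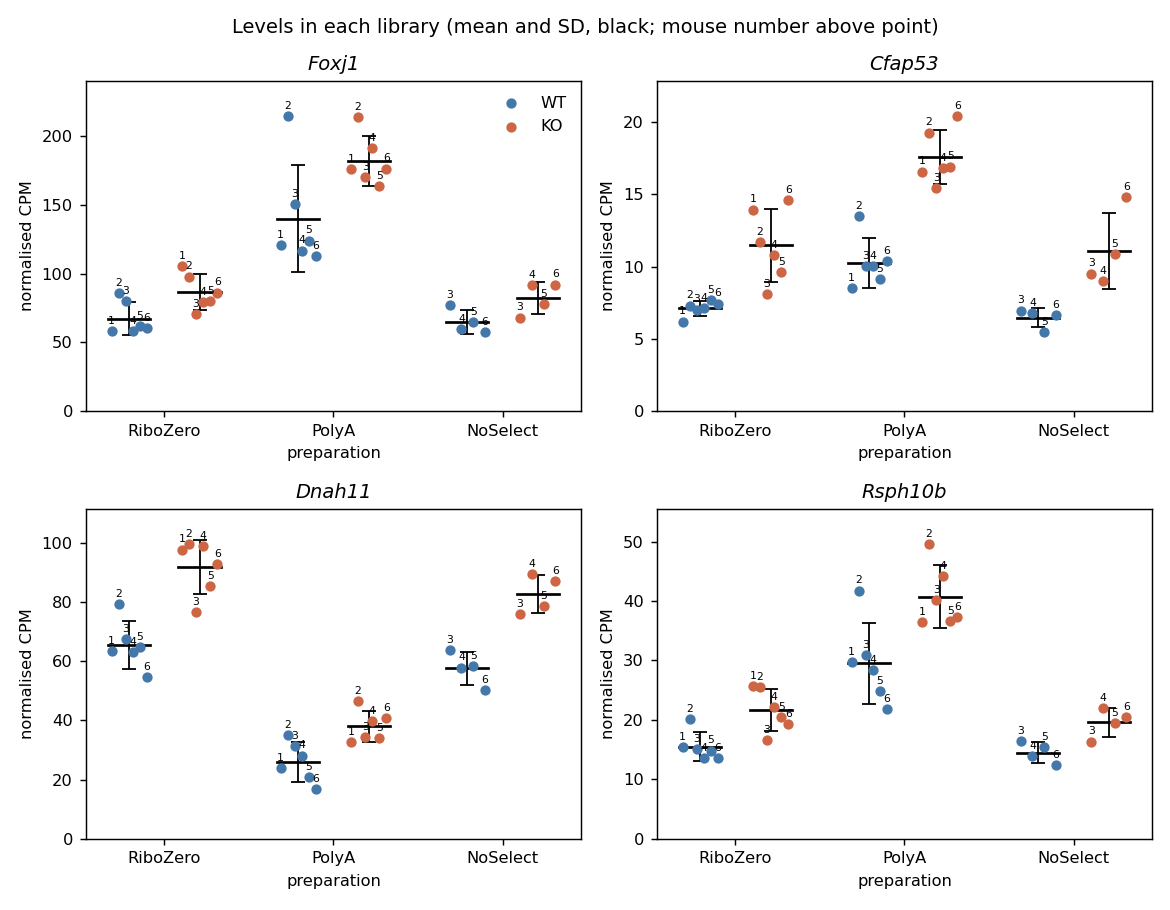
Normalised CPM (y axis, from 0) of single members in every library, by preparation and genotype, with 1 point per mouse and a bar at the group mean. For Cfap53 all KO points lie above all WT points within each preparation. For the other genes shown between genotypes the groups overlap in at least 1 preparation.

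Among the outer-arm heavy chains of airway cilia, Dnah5, Dnah9 and Dnah11, all log2 fold changes were positive in all preparations. Dnah11 (ENSMUSG00000018581, chr12:117877982-118199043, minus strand) lay under RiboZero at 54.5, 64.1 and 79.2 normalised CPM in WT and at 76.6, 95.3 and 99.6 in KO. There the groups met only where KO 3, the lowest KO, fell under WT 2, the highest WT. Under PolyA it lay at 16.8, 25.98 and 35.0 in WT and at 32.7, 37.1 and 46.6 in KO. Under NoSelect WT mice 3 to 6 held 63.8, 57.9, 58.5 and 50.3 and KO mice 75.9, 89.4, 78.7 and 87.0, with no overlap. The log2 fold changes of 0.49 ± 0.09, 0.51 ± 0.15 and 0.52 ± 0.08 (SE) were close to each other, with adjusted p of 0.00706, 0.0931 and 0.0172. The call held in all RiboZero alternatives (adjusted p at most 0.0319), and under NoSelect it was lost in 5, which were without KO 4, WT 4 or WT 5, with the replicate block and with all 32 libraries in 1 fit (adjusted p up to 0.0976 over the alternatives). Dnah5 had log2 fold changes of 0.23, 0.34 and 0.20 and Dnah9 0.31, 0.38 and 0.31, none called. Of the sperm-type chains, Dnah8 was negative at -0.21, -0.05 and -0.36. The other, Dnah17, was positive at 0.17, 0.35 and 0.10 on low counts, and neither passed the test.

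Of 9 inner-arm heavy chains tested under RiboZero, 8 were positive, as were 6 of 8 under PolyA and 8 of 9 under NoSelect. By edgeR 0 were called (1, 3 and 2 at an unadjusted p under 0.05), and by DESeq2 0, 1 and 0. Dnah12 had the largest log2 fold change of them under PolyA, at 0.66 (adjusted p = 0.0762), where its own level was only 2.08 to 7.52 normalised CPM. The arm-assembly factors were positive in 5 of 5 in each preparation, with medians of 0.18, 0.13 and 0.15 and none called. The regulatory complex was positive in 3 of 3 in each. Its Drc7 lay closest to the threshold, at 0.41, 0.40 and 0.54 with adjusted p of 0.103, 0.174 and 0.0504.

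All 7 radial spoke genes tested were positive in each preparation. Rsph10b (ENSMUSG00000075569, chr5:143933035-143985719, plus strand) lay under RiboZero at 13.5, 15.0 and 20.2 normalised CPM in WT and at 16.6, 21.3 and 25.7 in KO. The WT library of 20.2 was again WT 2 and the lowest KO library KO 3. Under PolyA it was 21.8, 28.98 and 41.7 in WT and 36.5, 38.8 and 49.6 in KO, and under NoSelect 16.4, 13.9, 15.4 and 12.3 in WT against 16.3, 21.96, 19.5 and 20.5 in KO. The log2 fold changes were 0.49 ± 0.12, 0.43 ± 0.14 and 0.43 ± 0.11 (SE), with adjusted p of 0.0422, 0.105 and 0.104. Its RiboZero call was lost in 10 of 19 alternatives (adjusted p up to 0.099), and among fits without 1 library it held without KO 3, KO 6 or WT 2 and in no other. Of its 31-base words, 11.4% also occur in other genes, mostly the neighbour Pms2 and a predicted gene.

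Foxj1 itself did not pass the test. It lay at 58.0, 61.1 and 85.8 normalised CPM in WT and at 70.6, 83.2 and 106 in KO under RiboZero, at 113, 123 and 215 against 164, 176 and 214 under PolyA, and at 77.0, 59.9, 65.0 and 57.6 against 68.1, 91.7, 77.7 and 92.0 under NoSelect. The groups overlapped in each. The log2 fold changes were 0.36 ± 0.12, 0.34 ± 0.15 and 0.34 ± 0.12 (SE), with adjusted p of 0.140, 0.234 and 0.216. Under PolyA it passed in 2 of 19 alternatives, without WT 2 and in mice 3 to 6 alone, with a lowest adjusted p of 0.00467.

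The tektins differed among themselves. Tekt1 had log2 fold changes of 0.43, 0.42 and 0.41 (adjusted p = 0.0853, 0.109 and 0.161), and Tekt5 of 0.33, 0.37 and 0.58 (0.311, 0.363 and 0.161). Tekt2 was near 0, at -0.04, -0.09 and 0.04. Tekt4 was positive in each preparation, at 0.17 under PolyA and 0.08 under NoSelect, and was not called. Tekt3 was negative at -0.41 under PolyA and -1.12 under NoSelect, on at most 55 counts in any library, and was too low for the RiboZero test. With all 32 libraries in 1 fit it was tested under RiboZero and was the 1 member called lower there. Central apparatus genes were positive in 10 of 10, 10 of 11 and 9 of 10 tested, and the remaining Cfap genes in 22 of 22, 22 of 22 and 20 of 22, Cfap53 being the 1 of them called. Of the 5 members that are not cilia parts, 3 were tested, with 1 positive and 2 negative in each preparation. Spag9 stood at 0.05, 0.12 and 0.04, and Spag7 at -0.01, -0.0035 and -0.08. Spag5 stood at -0.34, -0.55 and -0.52 (adjusted p = 0.414, 0.0700 and 0.222). For Spag5 under PolyA every KO library, 1.33 to 2.49 normalised CPM, was under every WT library, 2.64 to 3.82. The 5 markers of proliferating cells were also negative in each preparation, 3 of them at an unadjusted p under 0.05 and 0 called by edgeR, with 0, 1 and 0 called by DESeq2. Their part in the Spag5 values was not tested.

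**Figure D3:**
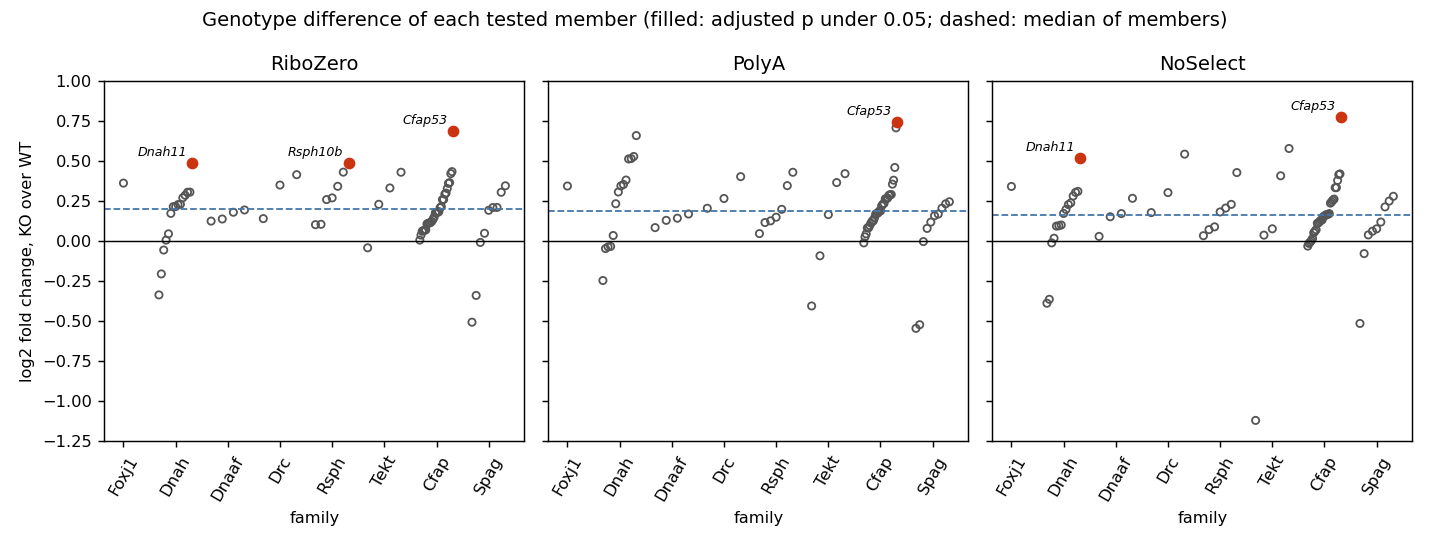
Log2 fold change of KO against WT (y axis) for every member tested, by family (x axis), with 1 panel per preparation; filled points passed at an adjusted p under 0.05, and a dashed line marks the median of the members. Most points of most families lie above 0, with Cfap53 highest among the called members.

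Between 1 and 3 calls, the count depended on single animals. Under RiboZero it was 9 without KO 3 and 5 without WT 2, and under PolyA 19 without WT 2, all higher in KO. The share of all rows called in either direction was 3.82% and 3.3% in these RiboZero fits, against 3.46% with all 12 libraries, and 6.16% in the PolyA fit, against 4.03%. Under NoSelect it was 0 without KO 4, WT 4 or WT 5, and 1 without KO 5, WT 3 or WT 6, when 0.858% to 1.59% of all rows were called, against 2.17% with all 8. DESeq2 called 7, 8 and 4 members, when it called 3.61%, 5.27% and 3.27% of its rows, with Spag5 under PolyA the 1 member lower.

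Some of those animals lay at the edge of their group. Each library was given the median, over the 71 members tested in all preparations, of the log2 level relative to the WT mean. WT 2 stood at 0.35 under RiboZero, where 65 of 71 members were above the WT mean, and at 0.51 under PolyA, the highest of all 12 PolyA libraries. WT 6 was the lowest library of each preparation, at -0.20, -0.39 and -0.18. KO 3 was the lowest KO under RiboZero and NoSelect, at -0.10 and -0.03, and stood at 0.12 under PolyA. The other KO libraries lay between 0.09 and 0.47, and the genotypes overlapped in each preparation.

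Markers of other cell types also differed between these animals. The 8 club cell markers were all positive in KO in all preparations, with medians of 0.40, 0.35 and 0.36. By edgeR 0 were called (3, 2 and 2 at an unadjusted p under 0.05), and by DESeq2 0, 0 and 1. Their summed level was 8528 to 13980 normalised CPM in WT and 11198 to 14978 in KO under RiboZero, 23474 to 43802 against 28066 to 41992 under PolyA, and 9628 to 12847 against 12843 to 16180 under NoSelect. In WT 2 the median club marker was 0.42 and 0.57 above the WT mean on the log2 scale, and in KO 3 it was -0.31, 0.01 and -0.26. Heart muscle markers were 1.24 and 1.36 above it in WT 2 and at -2.68, -2.51 and -2.21 in KO 3. They did not move with the cilia genes in every mouse. In WT 3 heart markers stood at -0.82, -0.83 and -0.50 and the median cilia gene at 0.09, 0.11 and 0.19. Of the 6 alveolar type 2 markers all were negative in KO, and Sftpa1, a surfactant protein, was called lower in all preparations. The part of the dissected tissue or of cell numbers in the cilia values was not tested, and in whole lung, fewer cells of a type and less RNA per cell cannot be told apart.

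**Figure D4:**
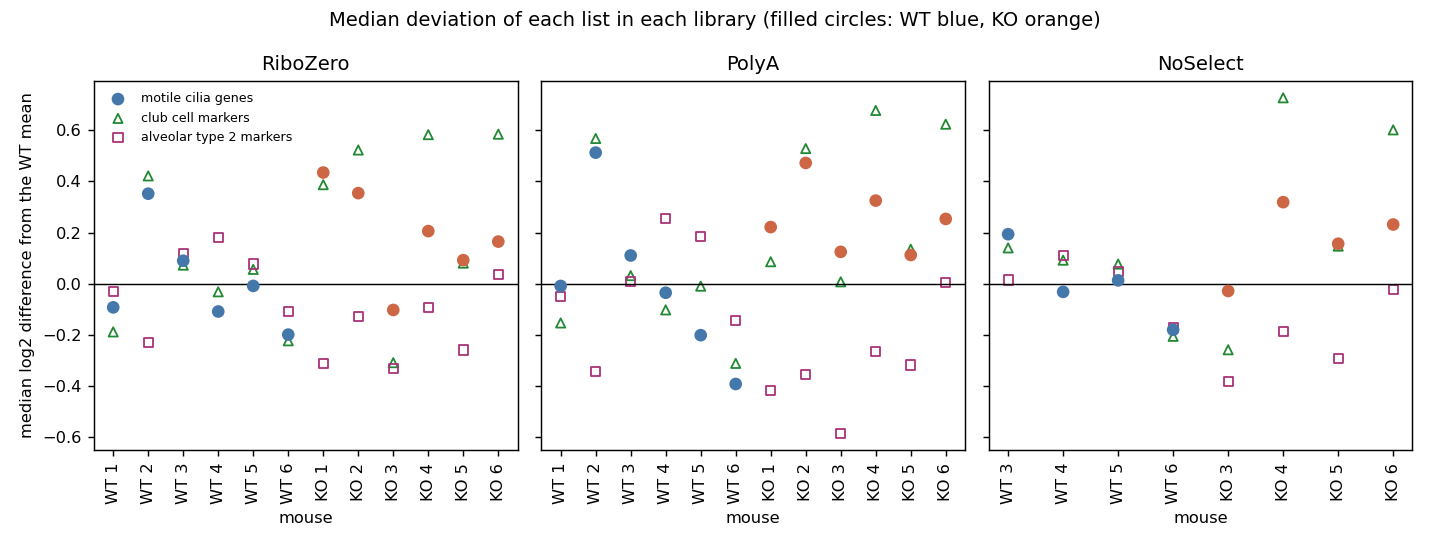
Median log2 level of the 71 members relative to the WT mean of the preparation (y axis) for each mouse (x axis), with 1 panel per preparation; open triangles and squares give the same median for club cell and alveolar type 2 markers. WT 2 stands above the other WT mice, WT 6 is lowest, and KO 3 is low among the KO mice.

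The spread among WT mice was wider for cilia genes than for most rows. The SD of the log2 level over WT libraries had a median of 0.23 under RiboZero, 0.34 under PolyA and 0.18 under NoSelect, against 0.12, 0.13 and 0.09 for all rows of at least 1 CPM. Only 20.2%, 9.69% and 20.9% of those rows had a larger SD than the median member.

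Across the 12 mice, the levels of most members varied with that of Foxj1. The correlation with Foxj1 had a median of 0.81 under RiboZero and 0.86 under PolyA over 68 members, where the median of 14211 rows was 0.00 and 0.10. It was above 0.8 in both preparations for 31 members (45.6%) and for 2.12% of rows. These values share libraries and scaling, and are given as a description. Highest were Cfap206 and Cfap299 (mean r of 0.96), Drc7 (0.95) and Tekt1 (0.94). Lowest were Spag5 (-0.59), Dnah8 (-0.45), Dnah2os (-0.30) and Spag9 (-0.01). Outside the members, the rows most like Foxj1 were Mapk15, a kinase (0.98), Dynlrb2, a dynein light chain (0.97), 2410004P03Rik (0.97), BC051019 (0.96) and Bok (0.96).

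The 2 larger preparations ranked the mice alike for Foxj1. Its levels under RiboZero and PolyA correlated over 12 mice with r = 0.860 and rho = 0.783 (permutation test, adjusted p = 0.00114 and 0.00492 over 5 relations). Without the 2 mice farthest from the median r was 0.791, within WT it was 0.93 and within KO 0.43 (n = 6 each). Foxj1 and Dnah5 correlated with r = 0.860 under PolyA (rho = 0.916) and 0.855 under RiboZero (rho = 0.825), with permutation adjusted p of 0.001 and 0.00114 for r and 0.0008 and 0.00267 for rho. Without 2 mice r was 0.863 and 0.844, and it was at least 0.81 within each genotype. Foxj1 also correlated with Scgb1a1, the secretory protein of club cells, which are not ciliated: r was 0.846 under PolyA and 0.723 under RiboZero (rho = 0.832 and 0.769, permutation adjusted p of 0.00114 and 0.00749 for r and 0.00267 and 0.00492 for rho), and 0.783 and 0.692 without 2 mice. Within WT it was 0.93 and 0.71 and within KO 0.43 and 0.24, with 6 mice a genotype, a difference that was not tested. The 2 mice left out in these relations were WT 4 and WT 6 under PolyA. Otherwise they were WT 1 and WT 4, so WT 2 always stayed in. WT 2 had the highest Foxj1 and Scgb1a1 of the WT mice in both preparations, and the relation within WT without it was not tested.

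Genes of the ciliated cell outside the name rule were taken from a list of 50, of which 44 were found by symbol. Of 43 tested under RiboZero, 35 were positive and 2 were called higher in KO. These were Gmnc, the geminin-like regulator that starts the multiciliated cell program (log2 fold change 0.91, adjusted p = 0.0179), and Stk36, a kinase needed for the central pair of microtubules (0.46, adjusted p = 0.0418). Under PolyA 34 of 44 and under NoSelect 35 of 44 were positive and 0 were called by edgeR, with 15 at an unadjusted p under 0.05 and 2 called by DESeq2 in each. There Gmnc stood at 0.74 (adjusted p = 0.0689) and 0.62 (0.0562). Other regulators of that program on the list were not called. Of these, 4 were negative in each preparation: Mcidas (-0.14, -0.65 and -0.08), Ccno (-0.28, -0.30 and -0.23), Myb (-0.05, -0.09 and -0.13) and Rfx2 (-0.10, -0.04 and -0.08). Trp73 stood at 0.34, 0.30 and 0.27, and Rfx3 at 0.16, 0.27 and 0.13. The list's medians were 0.22, 0.21 and 0.16, close to those of the members.

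Whether the KO difference depended on the preparation was tested directly as an interaction. In edgeR 0 members and 0% of all rows passed in any of the 3 pairs of preparations, and in DESeq2 0 members did. At an unadjusted p under 0.05 there was 1 member per pair: Cfap44 for PolyA minus RiboZero, with a difference of log2 fold changes of 0.52, and Spag4, at -0.83 for PolyA minus NoSelect and -0.79 for RiboZero minus NoSelect. A call in 1 preparation and not in another, as for Dnah11, is therefore not shown to be a difference between preparations.

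The preparation itself changed the levels far more than the genotype did, and it split the genes by length. Against RiboZero, PolyA libraries held less RNA of most long dynein heavy chains, with Dnah12 15.4-fold lower and Dnah5 3.01-fold lower. They held more of several shorter genes, with Tekt2 4.27-fold, Dnaaf3 3.20-fold and Cfap126 2.87-fold higher. Foxj1 was 2.09-fold higher. Cfap65 was 3.05-fold higher although its longest transcript has 5727 bases. Against NoSelect the picture was alike, while RiboZero and NoSelect differed little.

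Between PolyA and RiboZero, 24 of 75 members changed by at least a log2 fold change of 1 at an adjusted p under 0.05. Of these 13 were higher in PolyA, when 7% of all rows were, and 11 were lower, when 16.6% were. Between PolyA and NoSelect it was 23 higher (10% of rows) and 11 lower (15.1%) of 74. With no minimum fold, 67 of 75 and 66 of 74 passed, against 81.1% and 79.1% of rows. The fit of PolyA and NoSelect set all 12 PolyA libraries against the 8 NoSelect libraries, which are of mice 3 to 6. In those mice alone, at the fold threshold, 19 members were higher in PolyA and 12 lower. There 24.6% of all rows were called in either direction. The members thus stood above the background for higher calls and near it for lower calls. The median of all rows shifted by less than 0.1 between the TMM scaling and median-of-ratios scaling.

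Of the 14 heavy chains tested, 8 were lower in PolyA than in RiboZero and 0 higher, with a median of -1.30. Dnah12 (ENSMUSG00000021879, chr14:26693274-26891703, plus strand), an inner-arm chain, lay at 44.3, 60.6 and 81.0 normalised CPM over the 12 RiboZero libraries, at 42.0, 55.0 and 64.7 over the 8 NoSelect libraries, and at 2.08, 4.10 and 7.52 over the 12 PolyA libraries. The highest PolyA library was far below the lowest of the others. The log2 fold change was -3.94 ± 0.13 (SE) against RiboZero (adjusted p = 4.37e-19) and -3.70 ± 0.13 against NoSelect (5.06e-16). Dnah5 (ENSMUSG00000022262, chr15:28203752-28472052, plus strand) lay at 119, 160 and 216 under RiboZero, 102, 134 and 173 under NoSelect and 28.7, 55.2 and 80.1 under PolyA, again with no overlap. Groups that do not overlap were found for 20% of all rows with PolyA higher and 23.2% with PolyA lower than RiboZero, and for 22.1% and 25.1% against NoSelect. Of the members, 20 were apart and higher and 12 apart and lower against RiboZero, and 30 and 11 against NoSelect. Next were Dnah8 (-1.41) and Dnah7b (-1.36).

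Dnah7c, a copy of the inner-arm gene Dnah7, gave 1 count in the 12 PolyA libraries together, against 257 counts in the RiboZero and 173 in the NoSelect libraries. Set against a floor of 3 counts per library, it was at least 13.7-fold higher in RiboZero and at least 11.2-fold higher in NoSelect. Dnah7a, Dnah7b and Dnah7c share between 40.0% and 61.6% of their 31-base words with other genes, mainly each other, so the split of reads among them is uncertain. Not all long chains were lower: Dnah1 (0.06), Dnah2 (0.04) and Dnah10 (0.27) had log2 fold changes near 0 between PolyA and RiboZero, although they are also among the longest.

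Among the 60 members tested outside the Dnah rows, 13 were higher in PolyA than in RiboZero and 3 lower (Cfap44, Cfap54 and Spag9), with a median of 0.74. The antisense Dnah2os stood at 0.79 and was not called. Tekt2 (ENSMUSG00000028845, chr4:126322121-126325688, minus strand) lay at 2.82, 3.60 and 4.25 normalised CPM under RiboZero, 5.83, 6.46 and 7.47 under NoSelect and 12.4, 15.2 and 20.9 under PolyA, and no group overlapped another. Its log2 fold change of PolyA against RiboZero was 2.09 ± 0.08 (SE, adjusted p = 1.43e-17). Dnaaf3 (1.68), Cfap65 (1.61), Cfap126 (1.52) and Cfap77 (1.51) followed. Against NoSelect the largest were the radial spoke genes Rsph9 and Rsph1 (both 1.56) and Tekt1 (1.52). All 3 Drc genes, 0.79 to 0.96 against RiboZero and so below the fold threshold, passed it against NoSelect at 1.03 to 1.17. For Drc7 that call was lost in 12 of 18 alternatives, at log2 fold changes down to 0.89. Exons of Tekt2 and Dnaaf3 overlap genes on the opposite strand over 20.8% and 12.6% of their length, and whether counting used the strand is not given in the sources used here. Dnaaf3 also shares 3.87% of its exon bases with Tnni3 on the same strand. Tnni3, a heart muscle marker, was itself called higher in PolyA, and its part in the Dnaaf3 values was not tested.

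RiboZero and NoSelect gave 0 of 73 members called in edgeR at the fold threshold, when 4.3% of rows were, and DESeq2 also gave 0. At an unadjusted p under 0.05 there were 35 members, and at an adjusted p under 0.05 with no minimum fold 29, when 45.9% of rows were. With the mouse as a block Cfap77 was called lower in RiboZero. Cfap77 (-0.90 ± 0.11), Tekt2 (-0.89 ± 0.08) and Cfap65 (-0.70 ± 0.09, SE) had the lowest log2 fold changes. For these genes the PolyA difference was therefore smaller against NoSelect than against RiboZero: 0.65, 1.25 and 0.95, in place of 1.51, 2.09 and 1.61. Groups were apart for Cfap77 and Tekt2 (lower in RiboZero, as for 7.72% of rows) and for Spag7 (higher, as for 4.75%).

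**Figure D5:**
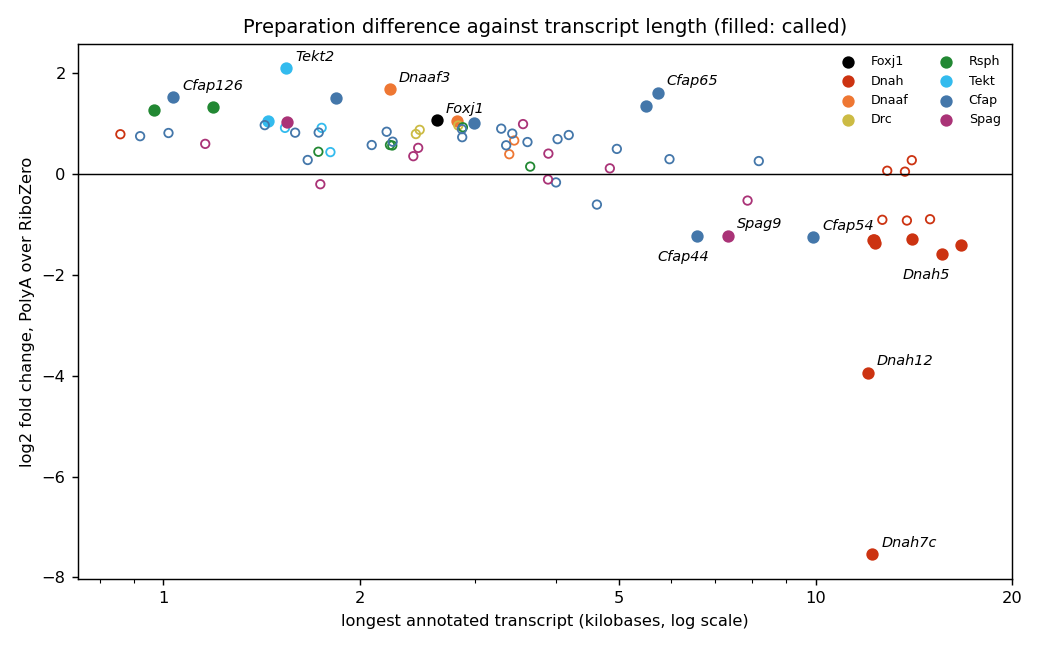
Log2 fold change of PolyA against RiboZero (y axis) against the length of the longest transcript in kilobases (x axis, log scale), with 1 point per member tested, coloured by family and filled where called. Members under 5000 bases lie mostly above 0 and the heavy chains mostly below, with Dnah12 and Dnah7c lowest.

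The split by length was not particular to cilia genes. Over 75 members the log2 fold change of PolyA against RiboZero and the log2 transcript length had r = -0.64 (rho = -0.69), and over 15071 protein-coding rows r = -0.41 (rho = -0.63), as correlations across genes of the same libraries. Of the members of at least 10000 bases, all of them heavy chains, 57.1% were called lower, against 74.3% of the 374 protein-coding rows of that length. Of 20 members under 2000 bases, 35.0% were called higher, against 15.7% of 3221 rows, and of 33 members between 2000 and 5000 bases 12.1% against 3.98%. Shorter cilia genes were thus called higher in PolyA more often than rows of their length, a comparison given as counts only. The list of other ciliated cell genes moved likewise, with 14 higher, 2 lower and a median of 0.89 over 44 genes. The median was 1.22 over the 8 club markers, 5 of which were called higher.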

How the data were processed

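The deposited table holds estimated counts per gene that the authors made with Salmon 1.4.0, with UMI-tools 1.1.1 and genome build GRCm38 named in the submitters' processing notes. The filters and strand setting used are not given in the sources used here. Estimated counts were rounded to whole numbers. Each comparison was fitted on all rows with edgeR 4.0.16 (quasi-likelihood test, TMM, filterByExpr, genotype as covariate between preparations), with Benjamini-Hochberg adjustment over all rows tested. A call needs an adjusted p under 0.05 and, between preparations, a difference of 1 or more on the log2 scale in either direction. Correlations used log2(normalised CPM + 0.5) and 100000 resamples. DESeq2 1.42.0, other scaling and filters, each library left out, mouse or number blocks, mice 3 to 6 alone and 1 fit of all 32 libraries were alternatives. In simulated counts of independent libraries, the fits recovered added changes larger than the genotype differences of the members. Recovery of small differences, or in genes that vary together, was not tested.

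Members and gene lists were chosen with earlier results of these data known. Genes to be named were Foxj1, members called between genotypes, the 3 highest per family by level per kilobase, all tektins, and the highest and lowest called between preparations. Dnaaf1, Dnaaf5, Dnah3 and Spag6l met this rule and are not described one by one. Other names were chosen after their values were seen. Further lists were tested between genotypes: alveolar type 1 (Ager called higher under RiboZero), basal (2 of 4 genes tested), endothelial, other epithelial, proliferating and heart muscle markers (0 called by edgeR in each; DESeq2 called 1 proliferating marker under PolyA), germ cells (1 of 6 genes tested, under PolyA alone, and not called), and liver (Apob higher under RiboZero, Ahsg lower under PolyA). Same-mouse libraries of different preparations correlated best with each other in 12 of 12, 8 of 8 and 8 of 8 pairs, and the labels' mouse numbers pair them. WT and KO mice of the same number are different animals. Nothing says how the mice were housed or collected together, so p-values between genotypes measure the spread between these animals. The main fits between preparations and of the interaction took the libraries of 1 mouse as independent. Their p-values therefore do not measure a spread between animals, and the mouse entered as a block only in an alternative. Estimated counts carry counting error of molecules or reads as the authors processed them.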

Additional observations from a re-analysis of the deposited data

Results flagged for a closer look

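Among members picked for this list, 5 values lay apart from the rest of their group of 4 to 10 libraries by Dixon's criterion. The list held Foxj1, Cfap53, Cfap65, Cfap126, Dnaaf3, Dnah5, Dnah7c, Dnah11, Dnah12, Rsph1, Rsph10b, Spag5, Spag9, Tekt1 and Tekt2. Flagged values of all other members, named ones included, are only counted below. Chance flags about 1 in 20 groups, and over all members 30 of 451 combinations of member and group (6.65%) were flagged. In 4 of the 5 the library was WT 2. Under RiboZero, Cfap126 stood at 13.2 normalised CPM in WT 2 with the next WT library at 10.8, and Rsph10b at 20.2 with the next at 15.4. Under PolyA, Dnaaf3 stood at 37.8 in WT 2 with the next at 27.2, and Rsph1 at 55.4 with the next at 39.3. Spag5, of the mitotic spindle, was highest in WT 6 under PolyA, at 3.82 with the next at 2.95.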

How the results depend on the processing

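No alternative turned a direction among the named members called in a comparison, Foxj1 between genotypes, the member medians and the correlations. The directions of other members were not compared across alternatives. Of the counts and relations recomputed, 154 kept their call or stayed within 1.5 times and 24 moved. Of the single-gene values and member medians, 917 kept their call or, for a median, shifted by less than the SD among WT libraries. Of the rest, 44 lost a call and 2 gained one. Members called between genotypes under RiboZero were 3 in the main analysis, 7 with DESeq2, 5 with all 32 libraries in 1 fit and 2 to 9 with 1 library left out. Under PolyA they were 1, then 8 with DESeq2, 8 in mice 3 to 6 alone, 11 with all libraries and 1 to 19. Under NoSelect they were 2, then 4 with DESeq2, 1 with median-of-ratios size factors, 1 with no filter, 1 with all libraries and 0 to 3. With all libraries in 1 fit the share of all rows called also moved, from 3.46%, 4.03% and 2.17% to 4.7%, 8.25% and 1.79%, and 1 of the 5 RiboZero calls, Tekt3, was lower. With DESeq2 it was 3.61%, 5.27% and 3.27%, and in mice 3 to 6 alone under PolyA 2.7%. The replicate block, whose numbers pair different animals between genotypes, gave 3, 4 and 0. Between preparations, where the block is the mouse, it gave 24, 31 and 1, and with no minimum fold the counts were 67, 66 and 29; leaving out each mouse gave 22 to 25, 32 to 36 and 0. All interaction counts stayed at 0. The cause of these shifts was not tested. Members under about 1 normalised CPM, such as Tekt3, Spag4 and Dnah17, rest on few counts per library.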
